A study of Mus musculus with 6 samples.

Results

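Krüppel-like factors (KLFs) are transcription factors that bind DNA through zinc fingers at the end of the protein, and Klf7 is the member named in the title of this study of olfactory sensory neurons. The signals of Klf7 and of 9 paralogs, Klf6, Klf5, Klf4, Klf3, Klf12, Klf9, Klf11, Klf13 and Klf16, were taken from expression arrays of mouse olfactory epithelium. A probe set, a group of probes that report one transcript, was included where the platform annotation gave it exactly 1 gene symbol and that symbol was one of these 10. This gave 38 probe sets of the 45037 on the array, and 10 of 18193 genes. The arrays held RNA from 3 wild-type and 3 mutant pups aged 1 day, with 1 array per pup, all on a mix of the C57Black6/J and 129SvJ strains. The labels call the second group mutant. The sources used here do not state which allele the pups carried or where it lies relative to the probes. Per the labels, total RNA was purified on columns, amplified, and turned into cDNA with a biotin label.

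All KLFs recognise CACCC boxes and GC-rich boxes in promoters, so several family members can compete for one site. They differ outside the zinc fingers. KLF7, KLF6 and KLF5 carry activation domains, KLF4 can activate or repress, KLF3 and KLF12 recruit the CtBP corepressors, and KLF9, KLF11, KLF13 and KLF16 recruit the SIN3A corepressor. KLF7 is known for its part in axon growth and neuronal differentiation, including that of olfactory sensory neurons, whereas KLF4 and KLF9 are known to restrain axon growth.

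The promoters of Klf7 and Klf3 are shown because they held the most CACCC letters among the members with a listed promoter. Of the 10 factors Klf7 had the largest difference between the groups, and the brightest Klf3 probe set had one of the narrowest intervals. Each sequence runs 5′ to 3′ from 250 bases before to 50 bases after a start listed by RefSeq on GRCm38.p6, at chr1:64121340-64121639 on the minus strand for Klf7 and at chr5:64803271-64803570 on the plus strand for Klf3. Capitals mark CACCC or its reverse complement GGGTG.
Klf7: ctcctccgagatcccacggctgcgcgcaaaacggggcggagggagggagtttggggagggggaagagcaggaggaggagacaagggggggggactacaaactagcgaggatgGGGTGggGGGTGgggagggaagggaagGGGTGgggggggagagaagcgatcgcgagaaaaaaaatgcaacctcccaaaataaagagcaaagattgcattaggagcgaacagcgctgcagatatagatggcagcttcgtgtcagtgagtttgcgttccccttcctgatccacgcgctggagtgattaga
Klf3: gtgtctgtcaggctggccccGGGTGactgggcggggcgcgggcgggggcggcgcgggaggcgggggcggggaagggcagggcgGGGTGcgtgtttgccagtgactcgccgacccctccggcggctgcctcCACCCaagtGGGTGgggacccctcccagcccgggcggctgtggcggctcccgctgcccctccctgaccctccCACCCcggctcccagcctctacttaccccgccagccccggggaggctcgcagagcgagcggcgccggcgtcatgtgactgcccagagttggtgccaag
The Klf7 window held 3 of these boxes, all as GGGTG, a number reached by 9.3% of the 32851 listed promoters of the same length. The Klf3 window held 5, of which 2 read CACCC and 3 read GGGTG, a number reached by 1.0% of promoters. Of the 8 members with a listed promoter, Klf9, Klf12 and Klf13 held 1 box each, and Klf6, Klf4 and Klf11 held 0. At least 1 box was present in 57.5% of all promoters. The GC box CCGCCC, counted on both strands, occurred 6 times for Klf3, 4 times each for Klf4 and Klf11, 3 times for Klf13, 1 time each for Klf7 and Klf6, and 0 times for Klf9 and Klf12, while 35.7% of all promoters held at least 1. In Klf3 and in Klf13, 1 CACCC box overlapped a CCGCCC box. These matches describe letters only, and no binding was measured.

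Klf7 came first, since its level tests whether the arrays labelled mutant differed in the gene that the title names. All 4 Klf7 probe sets were lower on every mutant array than on any wild-type array. Levels below are log2 of the quantile-normalized intensity, with a floor at 3.65. Probe set 1419354_at read 9.36, 8.58 and 9.04 on wild-type arrays 1, 2 and 3, and 6.85, 5.70 and 5.26 on mutant arrays 1, 2 and 3. The groups were thus set apart by more than 1 log2 unit. In deposited intensities these were 695, 417 and 413 in wild type against 103, 66.6 and 39.0 in mutant. The log2 difference, mutant minus wild type, was -3.06 (SE 0.49, 95% interval -4.26 to -1.85), or 8.32-fold lower. Probe set 1449439_at, the brightest of the 4, read 9.76, 8.71 and 9.62 in wild type, against 7.37, 8.05 and 6.21 in mutant. The lowest wild-type array and the highest mutant array, both numbered 2, lay closest together. Its difference was -2.15 (SE 0.55, 95% interval -3.51 to -0.79), or 4.44-fold lower.

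The other two Klf7 probe sets were dimmer. Probe set 1419356_at read 7.80, 7.33 and 6.66 in wild type, against 5.13, 6.18 and 3.65 in mutant, a difference of -2.28 (SE 0.79). Probe set 1419355_at read 7.55, 6.34 and 5.85 in wild type, against 4.19, 5.23 and 3.65 in mutant, a difference of -2.23 (SE 0.76). On both, mutant array 3 lay at the floor, so that the size of these differences may be understated. The platform annotation gives the same source sequence for all 4 probe sets, so they are readings of 1 transcript and not independent replicates.

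**Figure D1:**
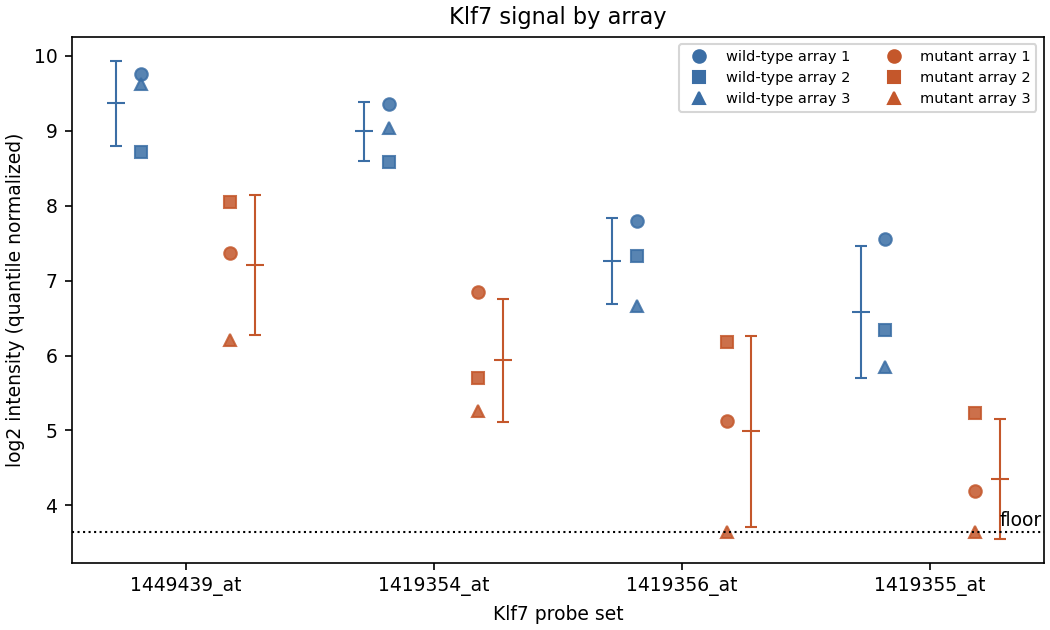
Log2 intensity of the 4 Klf7 probe sets on each of the 6 arrays, with wild type in blue and mutant in orange; bars are the mean and SD of 3 arrays and the dotted line is the floor of 3.65. No mutant point reaches the lowest wild-type point of its probe set, and mutant array 3 sits at the floor for 1419356_at and 1419355_at.

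Tested in one fit over all probe sets, Klf7 did not pass the threshold. Limma gave unadjusted p of 0.000902 for 1419354_at, 0.00863 for 1449439_at, 0.0275 for 1419355_at and 0.0297 for 1419356_at, and an adjusted p of 1 for each after Benjamini-Hochberg adjustment over the 45037 probe sets. By unadjusted p, 1419354_at stood at place 12 of all probe sets. Limma called 0 probe sets on the whole array, or 0%, with 482 (1.07%) at an unadjusted p under 0.05; with the replicate number as a block it again called 0, with 776 (1.72%) at an unadjusted p under 0.05. A difference below -2 was found for 12 probe sets of the array, or 0.0266%, and 4 of those 12 were the Klf7 probe sets. Groups that did not overlap with the mutant lower were found for 4 of 4 Klf7 probe sets, against 1.51% of all probe sets. Each Klf7 probe set had an exact two-sided permutation p of 0.1, and no smaller value is possible when 3 arrays are exchanged freely with 3. Flipping signs within the 3 numbered pairs gave an exact two-sided p of 0.25 for each, the smallest that 3 pairs allow.

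The amount of Klf7 signal left in the mutant differed between probe sets and between pups. Relative to the mean normalized wild-type intensity, mutant array 1 kept 22.1% and mutant array 3 kept 7.4% on 1419354_at, with mutant array 2 between them. On 1449439_at mutant arrays 1, 2 and 3 kept 23.9%, 38.5% and 10.7%. The wild-type arrays themselves ran from 60.5% to 125.2% of their mean on 1449439_at. On the dimmer probe sets, taken before the floor, mutant arrays 1, 2 and 3 kept 21.6%, 45.0% and 3.0% for 1419356_at. For 1419355_at they kept 16.7%, 34.5% and 0.0%. Mutant array 2 was thus the highest mutant array on every Klf7 probe set but 1419354_at, where it was in the middle. The log2 gap, 1419354_at minus 1449439_at, was -0.40, -0.13 and -0.59 in wild type, against -0.52, -2.35 and -0.95 in mutant. The groups overlapped in this gap (exact two-sided permutation p = 0.2). Among all probe sets of the same array, 1419354_at stood at percentiles 88.8, 83.3 and 86.7 in wild type, against 66.3, 51.3 and 44.9 in mutant. These percentiles use the deposited intensities and do not depend on the normalization.

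Summed markers of olfactory sensory neurons were lower on the mutant arrays, while their medians were not lower on each of them. The summed normalized intensity of 7 measured markers of mature neurons, of 8 listed, was 4755 to 6320 in wild type and 2807 to 3739 in mutant, with 6 of the 7 lower. That of 6 measured markers of immature neurons, of 6 listed, was 8746 to 9532 in wild type and 6308 to 7501 in mutant, with 6 of 6 lower. A sum is carried by the brightest markers. Taken marker by marker, the median log2 difference was -0.86 for mature and -0.78 for immature markers. The median log2 level of the mature markers was 8.82, 8.83 and 8.26 in wild type, against 9.38 and 9.44 on mutant arrays 2 and 3, with mutant array 1 below every wild-type array. That of the immature markers was 9.87, 9.74 and 9.89 in wild type, against 9.09, 8.99 and 9.91 in mutant. By the median, mutant arrays 2 and 3 lay above every wild-type array for mature markers, and mutant array 3 did so for immature markers. All the measured neuron markers lay above the level used as a filter for dim probe sets. In bulk tissue, fewer neurons and less RNA per neuron cannot be told apart. The log2 sum differed by -0.72 for mature and -0.41 for immature markers. Taken relative to the summed immature markers of the same array, a ratio chosen after seeing the data, 1419354_at differed by -2.64 and 1449439_at by -1.74, with no overlap (exact two-sided permutation p = 0.1 for each). Relative to the mature markers they differed by -2.34 and -1.43, again without overlap. With those markers, mutant array 2 at -3.60 and wild-type array 2 at -3.58 nearly met for 1449439_at, and 1419356_at overlapped. The part of the neuron markers in the Klf7 differences was not tested.

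The wild-type order of the 10 factors shows which of them gave the strongest signals in this tissue. Each gene was represented by its brightest probe set, judged by the mean of all 6 arrays. Probe sets differ in how well they hybridise, so the order is one of array signal and not of transcript number. Klf3 was brightest with a log2 level of 10.78 ± 0.29 (SD, n = 3, as for each level in this order), in the top 5.7% of the 18193 genes. Klf13 followed at 10.29 ± 0.27 (top 9.2%) and Klf6 at 10.26 ± 0.71 (top 9.5%). Klf12 stood at 9.86 ± 0.72 (top 12.9%) and Klf9 at 9.81 ± 0.95 (top 13.6%). Klf7 was at place 6 with 9.36 ± 0.57 (top 18.1%), next to Klf16 at 9.34 ± 0.33 (top 18.4%). Klf4 at 8.60 ± 0.60 (top 26.1%), Klf11 at 7.62 ± 0.61 (top 37.1%) and Klf5 at 6.85 ± 0.19 (top 46.8%) closed the order. Klf10, which is not one of these 10 factors, stood above Klf3 at 11.00 ± 0.15. Neighbours overlapped between wild-type arrays in 8 of the 9 steps; only Klf11 and Klf5 did not overlap. On the mutant arrays Klf7 moved to place 9 and to the top 42.1% of genes, with array values of 42.7%, 31.8% and 58.7% against 14.7%, 26.3% and 15.7% in wild type.

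The places depended on the choice of probe set. With the mean of all probe sets of a gene, Klf3 stood in the top 44.1%, Klf9 in the top 41.7% and Klf12 in the top 40.3%. Klf16, with a single probe set, stood in the top 6.7%.

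**Figure D2:**
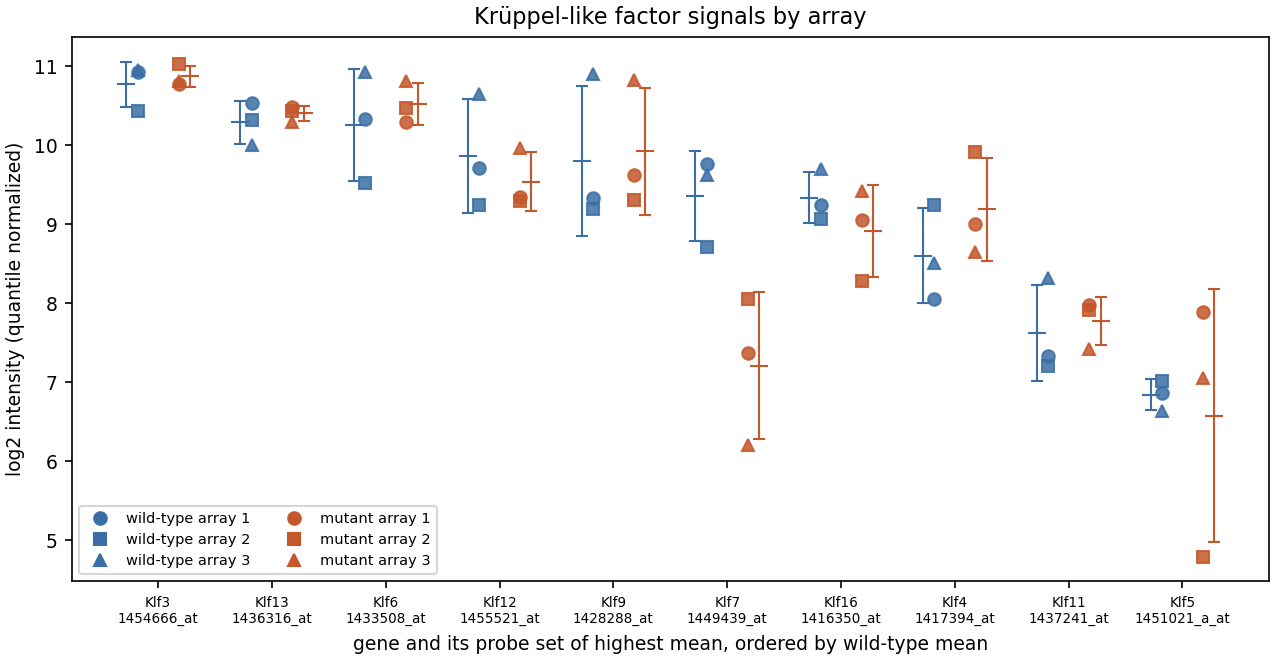
Log2 intensity of the brightest probe set of each of the 10 factors on the 6 arrays, ordered by the wild-type mean; bars are the mean and SD of 3 arrays per group. Klf7 is the only factor in the plot whose wild-type and mutant points do not overlap, and the points of Klf5 are spread from 4.79 to 7.89 in mutant.

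Across the paralogs, no probe set passed the threshold, and differences went both ways. Of 34 paralog probe sets, 15 were lower and 19 higher in the mutant, with a median log2 difference of 0.03, beside 52.7% lower and a median of -0.01 over all probe sets. Limma called 0 of the 34, with 1 at an unadjusted p under 0.05. A mean above the lowest 40% of probe sets, 4.93 on the log2 scale, was reached by 24 of the 34, and by all 4 of Klf7. Together with Klf7, 5 of the 38 member probe sets had an unadjusted p under 0.05, beside 1.07% of all probe sets. The members passing numbered 3 when wild-type array 1, wild-type array 2 or mutant array 1 was left out, while the number over all probe sets rose from 482 to between 686 and 970 with 1 array left out. Using the brightest probe set of each paralog, 3 were lower and 6 higher, and 0 of the 9 had groups that did not overlap.

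**Figure D3:**
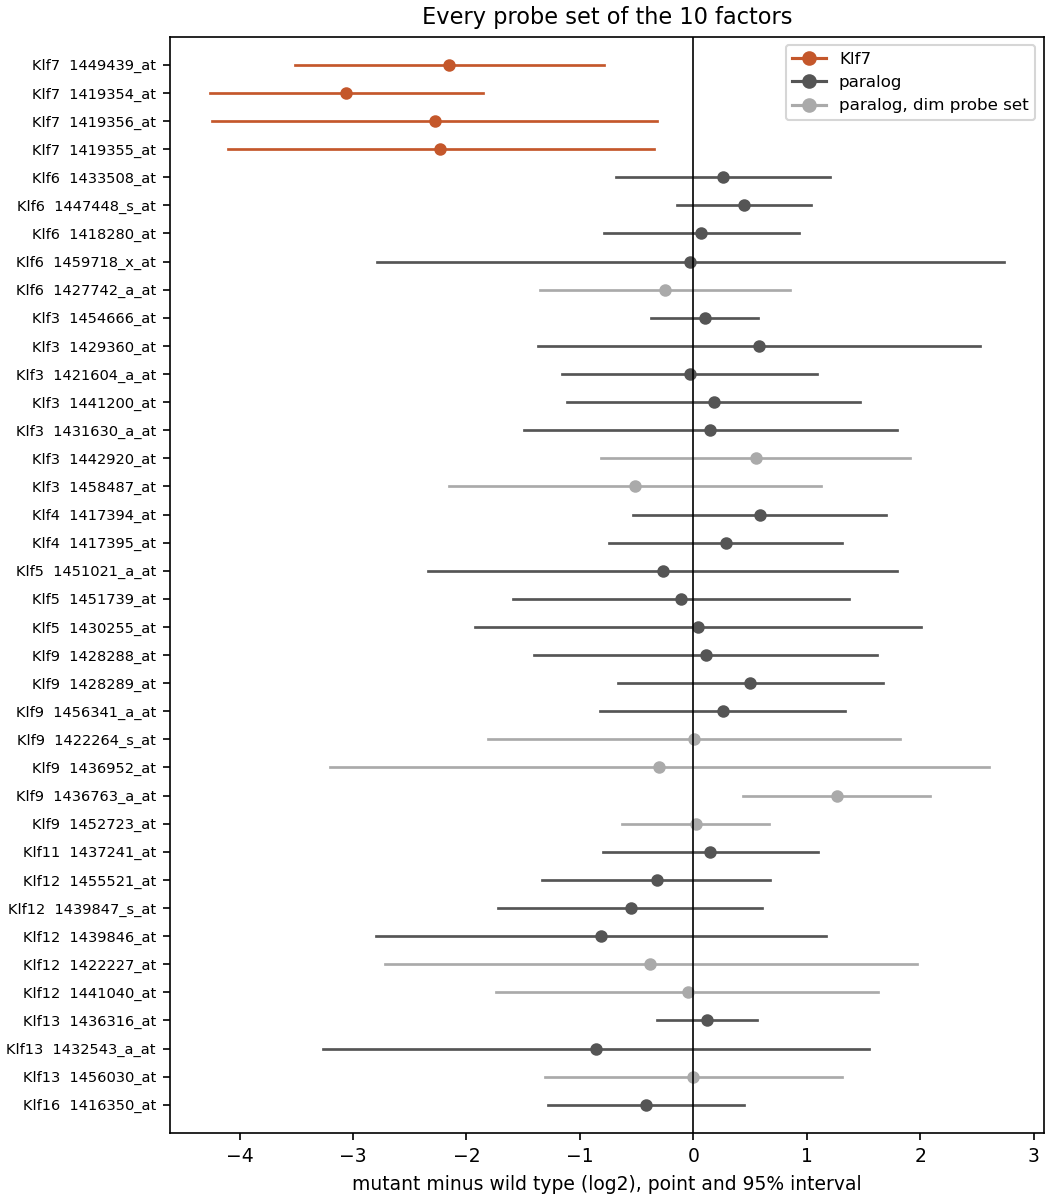
Difference between mutant and wild type on the log2 scale, with its 95% interval from limma, for all 38 probe sets; Klf7 is orange and paralog probe sets with a mean in the lowest 40% are pale grey. The 4 Klf7 intervals lie below 0, and 1 of the 34 paralog intervals, that of the dim Klf9 probe set 1436763_a_at, lies above it.

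Among the factors with activation domains, Klf6 is the closest relative of Klf7 and is an immediate response gene in many tissues. Its brightest probe set, 1433508_at, read 10.33, 9.52 and 10.93 in wild type, against 10.29, 10.47 and 10.81 in mutant. The groups overlapped, with wild-type array 2 the lowest of all. The difference was 0.26 (SE 0.38, 95% interval -0.68 to 1.21). Probe set 1447448_s_at read 10.14, 9.34 and 10.03 in wild type, against 10.27, 10.35 and 10.23 in mutant. All mutant values lay above all wild-type values, by a margin of less than the spread within the wild type. The difference was 0.45 (SE 0.24; limma, unadjusted p = 0.112, adjusted p = 1). The remaining Klf6 probe sets, 1418280_at, 1459718_x_at and 1427742_a_at, differed by 0.07, -0.03 and -0.25.

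Groups that did not overlap with the mutant higher were found for 2 of the 34 paralog probe sets, against 1.2% of all probe sets. Besides 1447448_s_at, this was the Klf9 probe set 1436763_a_at. It read 3.84, 3.65 and 3.65 in wild type, against 4.57, 4.74 and 5.62 in mutant. Wild-type arrays 2 and 3 were at the floor, so the size may be understated. The probe set is dim, with a mean of 4.35 against the cut of 4.93. Its difference of 1.27 (SE 0.33; limma, unadjusted p = 0.00972, adjusted p = 1) compares with a share of 0.48% of all probe sets that were higher in the mutant at an unadjusted p under 0.05. The 3 bright Klf9 probe sets did not show a difference of that size. KLF9 is a factor induced by thyroid hormone and glucocorticoids in neurons. Probe set 1428288_at read 9.33, 9.19 and 10.90 in wild type, against 9.63, 9.31 and 10.83 in mutant, a difference of 0.11 (SE 0.61, 95% interval -1.40 to 1.62). Probe sets 1428289_at and 1456341_a_at differed by 0.50 (SE 0.47) and 0.26 (SE 0.44). The other Klf9 probe sets were dim and lay between -0.30 and 0.02.

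The brightest Klf9 probe set was set apart by array number. On 1428288_at both arrays numbered 3 read above 10.8, and the other 4 arrays lay between 9.19 and 9.63. Between equally numbered arrays, mutant minus wild type was 0.30, 0.12 and -0.08. Several other paralogs shared this ordering: Klf6 1433508_at, Klf12 1455521_at and Klf16 1416350_at were each highest on array 3 within both groups. Klf13 1436316_at was lowest on array 3 within both groups. What an array number stands for is not given in the labels.

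Klf3 and Klf12 encode repressors that act through CtBP; KLF3 is known from blood, fat and muscle, and KLF12 as a repressor of the gene for the transcription factor AP-2 alpha. Klf3 1454666_at read 10.93, 10.44 and 10.95 in wild type, against 10.78, 11.03 and 10.82 in mutant. The groups overlapped, and the difference was 0.10 (SE 0.19, 95% interval -0.37 to 0.57). The other 6 Klf3 probe sets were dimmer, with means of 4.21 to 6.97, and differed by -0.51 to 0.58. Klf12 1455521_at read 9.71, 9.24 and 10.65 in wild type, against 9.35, 9.30 and 9.97 in mutant, a difference of -0.32 (SE 0.41, 95% interval -1.33 to 0.68). All 5 Klf12 probe sets were lower in the mutant on average, by -0.05 to -0.81, and each had groups that overlapped. Mutant array 3 was the lowest of the 6 on 1439847_s_at at 5.83 and on 1439846_at, where it lay at the floor.

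Klf13, Klf11 and Klf16 encode repressors of the SIN3A-binding branch. KLF13 is known from T cells and the heart, KLF11 as a factor induced by TGF-beta, and KLF16 as a regulator of dopamine receptor genes. Klf13 1436316_at read 10.54, 10.32 and 10.01 in wild type, against 10.48, 10.44 and 10.30 in mutant. It had the narrowest interval among the brightest probe sets, with a difference of 0.12 (SE 0.18, 95% interval -0.32 to 0.56). With the mean of its 3 probe sets the sign turned, to -0.25 (SE 0.45), through the dimmer 1432543_a_at at -0.86 (SE 0.97). Klf11, measured by 1437241_at, read 7.33, 7.21 and 8.32 in wild type, against 7.98, 7.92 and 7.42 in mutant, a difference of 0.15 (SE 0.38). Wild-type array 3 was the highest of the 6. Klf16, measured by 1416350_at, read 9.24, 9.07 and 9.70 in wild type, against 9.06, 8.28 and 9.42 in mutant, a difference of -0.42 (SE 0.35, 95% interval -1.28 to 0.45). Within each numbered pair Klf16 was lower in the mutant, by -0.18, -0.79 and -0.29.

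Klf4 and Klf5 are factors of epithelia, KLF4 in differentiating layers and KLF5 in proliferating basal cells. Klf4 1417394_at read 8.05, 9.25 and 8.51 in wild type. In mutant it read 9.92 on array 2 and 8.65 on array 3, with array 1 between them. The highest value in each group was on array 2, and the groups overlapped. The difference was 0.59 (SE 0.45, 95% interval -0.53 to 1.70), the largest positive value among the brightest probe sets of the paralogs, and within the numbered pairs it was 0.94, 0.67 and 0.14. The second Klf4 probe set, 1417395_at, differed by 0.29 (SE 0.41), with pair values of 0.47, -0.38 and 0.78. Klf5 1451021_a_at read 6.87, 7.02 and 6.64 in wild type, against 7.89, 4.79 and 7.05 in mutant. The mutant arrays surrounded the wild-type values on both sides, with mutant array 2 the lowest of the 6. Its difference was -0.27 (SE 0.84, 95% interval -2.34 to 1.80), and 0.63 without mutant array 2. The dimmer Klf5 probe sets, 1451739_at and 1430255_at, differed by -0.11 (SE 0.60) and 0.04 (SE 0.79). Mutant array 2 was the lowest of the 6 on 1430255_at at 4.22, but the highest mutant array on 1451739_at at 6.15.

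Markers of other epithelial cells varied between the same arrays. The median log2 level of 12 squamous epithelium markers, all of them measured, was 5.20, 9.08 and 5.12 in wild type, against 6.77, 4.15 and 6.96 in mutant. Their summed intensity was 609, 6373 and 845 in wild type, against 2337, 364 and 1716 in mutant, with 10 of 12 lower on average. Wild-type array 2 stood far above the rest of its group, and the count without it was not taken. The summed intensity of 5 horizontal basal cell markers ran from 1668 to 5510 in wild type and from 3256 to 6051 in mutant, with 5 of 5 higher. In mutant array 2, squamous markers and Klf5 1451021_a_at were both at their lowest of the 6 arrays, whereas Klf4 1417394_at was at its highest. Not all probe sets of these genes shared this. Klf4 1417395_at was highest on mutant array 3 at 8.41, with mutant array 2 at 7.74. Klf5 1451739_at read 6.15 on mutant array 2, its highest mutant array. In wild-type array 2, squamous markers were at their highest while Klf5 1451021_a_at stood at 7.02, near the other wild-type arrays. The part of these cells in the levels of Klf4 and Klf5 was not tested.

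**Figure D4:**
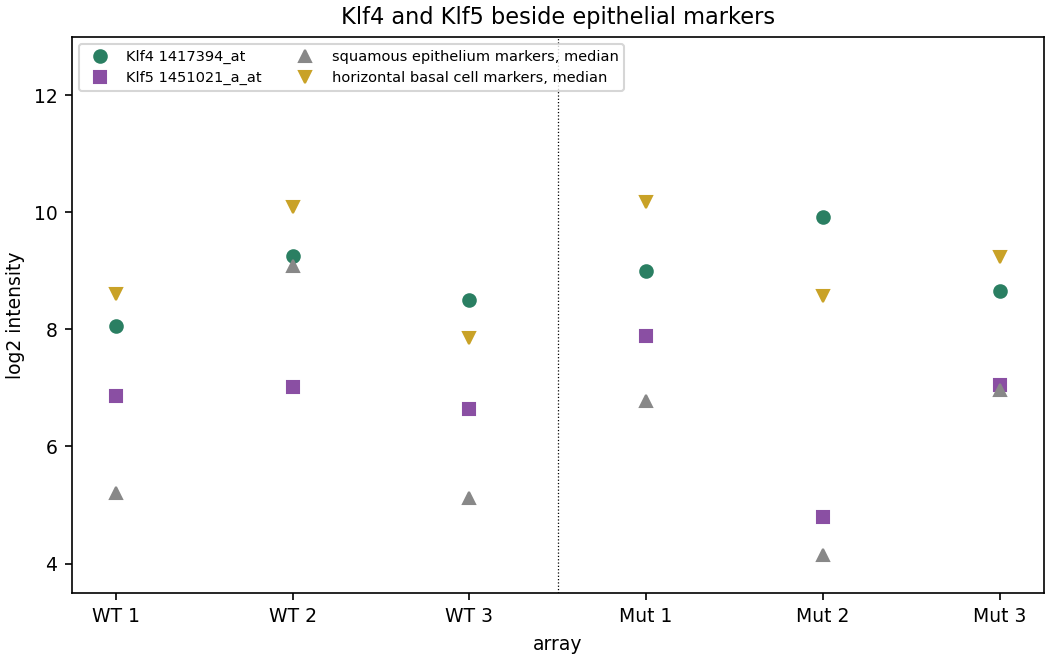
Log2 intensity of Klf4 1417394_at and Klf5 1451021_a_at on each array, beside the median log2 level of 12 squamous epithelium and 5 horizontal basal cell markers. On mutant array 2 Klf4 is at 9.92, Klf5 at 4.79 and the squamous median at 4.15; on wild-type array 2 the squamous median is at 9.08.

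The difference between the Klf7 and paralog results was tested on the ratio within each array, from which the overall scale of an array cancels. The median level of the 9 paralogs was 9.33, 9.24 and 10.01 in wild type, against 9.35, 9.31 and 9.97 in mutant, which differed by 0.02. Klf7 1449439_at minus this median was 0.43, -0.53 and -0.38 in wild type, against -1.98, -1.26 and -3.76 in mutant. The groups did not overlap, and the difference was -2.17 (exact two-sided permutation p = 0.1, the smallest possible here). For 1419354_at the difference was -3.08 (exact two-sided permutation p = 0.1). For 1419356_at and 1419355_at it was -2.30 and -2.25, with overlap (exact two-sided permutation p = 0.2 for each). Taken against each of the 9 paralogs singly, the level of 1449439_at was without overlap lower in the mutant for Klf6, Klf3, Klf4, Klf11, Klf12 and Klf13. It overlapped for Klf9 and Klf16 (exact permutation p = 0.2 for each) and for Klf5 (0.4), where mutant array 2 read 3.26, above all wild-type arrays. Against Klf6, the closest relative, it was -0.58, -0.81 and -1.31 in wild type, against -2.92, -2.42 and -4.60 in mutant, a difference of -2.41.

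**Figure D5:**
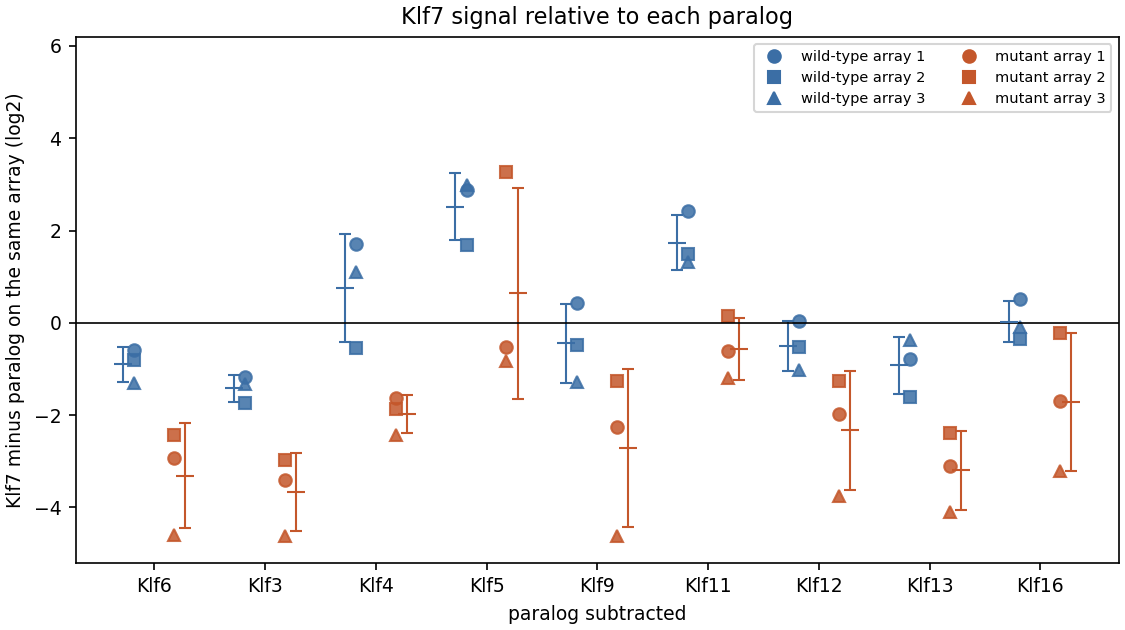
Log2 level of Klf7 1449439_at minus that of the brightest probe set of each paralog on the same array; bars are the mean and SD of 3 arrays per group. Mutant points lie below all wild-type points for 6 of the 9 paralogs, and mutant array 2 stands at 3.26 when Klf5 is subtracted.

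The genes nearest to Klf7 in profile over the 6 arrays are given as a description. Likeness was the root mean square difference between log2 profiles after each was centred on its own mean, over 12613 genes; Klf7 1449439_at itself varied by 1.25 about its mean. The nearest was Ppp2r2c, a regulatory subunit of protein phosphatase 2A found in brain, at 0.40. It read 10.58, 8.90 and 9.88 in wild type, against 8.68, 9.08 and 7.03 in mutant. Its groups overlapped through wild-type array 2. Next came Gca (grancalcin) at 0.57, and Slc24a2, a sodium, calcium and potassium exchanger, Carns1, the carnosine synthase, and Mgst3, a microsomal glutathione transferase, at 0.59 each. The 5 genes differed by -1.19 to -1.72 on the log2 scale. They share the 6 arrays with Klf7, on which the summed neuron markers also differ.

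Klf4 1417394_at, which varied by 0.59 about its mean, had Pcsk5, a proprotein convertase, as its nearest gene at 0.15. Acp7, Pdgfrl, Kyat3 and Opcml followed at 0.21 to 0.25. All 5 were highest on mutant array 2 and next highest on wild-type array 2, as Klf4 was. Klf5 1451021_a_at, which varied by 0.94, had Fam167a at 0.18, then Tlcd2, the chemokine Cxcl14, the kinase Akt2 and Mms19 at 0.19 to 0.23. All 5 were lowest on mutant array 2 and highest on mutant array 1, and Tlcd2 and Akt2 lay at the floor on mutant array 2.

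Other factors of the same DNA-binding family, and proteins that KLFs are known to recruit or that modify them, were taken from fixed lists. Limma called 0 genes in each list, with 0 at an unadjusted p under 0.05. Of 7 further KLF genes, 6 were measured, 3 lower and 3 higher, with a median difference of 0.04. Klf10, an early TGF-beta response gene, stood at 11.00 ± 0.15 in wild type and 10.97 ± 0.09 in mutant, a difference of -0.04 (SE 0.14). The range ran from Klf17 at -0.55 (SE 0.48) to Klf14 at 0.35 (SE 0.46). Of 9 Sp factors, the sister branch that binds GC boxes, 7 were measured, 3 lower and 4 higher, with a median of 0.02. Their range ran from Sp3 at -0.42 (SE 0.81) to Sp8, a factor of the olfactory system, at 0.32 (SE 0.40). Of 14 cofactor genes, all measured, 5 were lower and 9 higher, with a median of 0.08. The range ran from the deacetylase gene Hdac3 at -0.38 (SE 0.64) to the acetyltransferase gene Ep300 at 0.55 (SE 0.30). The median over the brightest probe sets of all genes was -0.01, with 53% lower.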

How the data were processed

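One intensity per probe set and array was used, as deposited by the authors on a linear scale; the probe summary, background correction and scaling behind it are not given in the sources used here. Exact 0 made up 5.39% of values, and array medians ran from 38.21 to 61.59. Intensities were quantile normalized, converted to log2 with all values below the 20th percentile (12.56) set to that percentile. All 45037 probe sets entered 1 limma fit (version 3.58.1, run in R 4.3.3), using lmFit and trended eBayes. Two-sided p-values were adjusted by Benjamini-Hochberg across the whole table, with 0.05 as threshold. The fit was also run on simulated data with independent noise on each array. Those data lack the likeness between equally numbered arrays, so the run checked the code and not the power here. Permutation tests were exact over the 20 splits of 6 arrays, which ignore the pairing; for Klf7 the 8 sign flips of the numbered pairs were also run, a test chosen after seeing the data.

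Symbols came from the platform annotation (34945 probe sets with 1 symbol, 932 with several, 9160 with none); the 10 members kept their symbol in the RefSeq gene table. Named genes were the 10 members with all their probe sets, the 5 genes nearest in profile to Klf7, Klf4 and Klf5 (clone names skipped, dim genes left out), and the ends of each list's range. Members and lists were chosen with earlier results of these data known. Members of each group are separate pups per the series' design text. Deviations from the group means of equally numbered arrays correlated at 0.54, 0.37 and 0.59 over 27022 probe sets, which met the bar set for pairing. The values reported come from the unpaired fit, so their SEs and intervals ignore this pairing. A fit blocked on array number was an alternative. Array number 3 stands apart in both groups, which favours such correlations.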

Additional observations from a re-analysis of the deposited data

How the results depend on the processing

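The difference of each Klf7 probe set was negative under every alternative run. Its groups stayed apart in each setting that kept the level on the array. As a ratio within arrays, 1419356_at overlapped relative to the mature neuron markers, and 1419356_at and 1419355_at overlapped relative to the paralog median. Leaving out 1 array gave -2.60 to -1.66 for 1449439_at, -3.44 to -2.75 for 1419354_at, -2.86 to -1.63 for 1419356_at and -2.65 to -1.73 for 1419355_at; without both arrays numbered 3 they were -1.56, -2.81, -2.01 and -2.32. Klf7 minus the paralog median was -2.74 to -1.47 with 1 array left out. A replicate block cannot move a mean difference in this balanced design, so the paralog ratio keeps its -2.17. With the block, limma's unadjusted p went from 0.00863 to 0.0299 for 1449439_at (SE 0.55 to 0.62), from 0.000902 to 0.00145 for 1419354_at, from 0.0297 to 0.0164 for 1419356_at and from 0.0275 to 0.0245 for 1419355_at. Among the brightest paralog probe sets, the block lowered the SE from 0.61 to 0.16 for Klf9 and from 0.45 to 0.23 for Klf4. For Klf12 it fell from 0.41 to 0.21, and for Klf16 from 0.35 to 0.20. The SE of Klf6, Klf13 and Klf5 also fell, to 0.29, 0.15 and 0.79. It rose from 0.19 to 0.22 for Klf3 and from 0.38 to 0.44 for Klf11. Among these, Klf4 had the lowest unadjusted p with the block, 0.0712 (limma). No alternative gave a call at an adjusted p under 0.05 (limma, 0 in each).

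The number of all probe sets at an unadjusted p under 0.05, 482, became 776 with the replicate block and 879 with array weights. It was 1157 without both arrays numbered 3 and 686 to 970 with 1 array left out. With dim probe sets left out it was 116, out of 27022 probe sets fitted and not 45037. Member probe sets at that level numbered 3 to 5 with 1 array left out. Paralog probe sets with groups that did not overlap, 2 in all, became 1 without dim probe sets. They numbered 6 without both arrays numbered 3, and 3 to 6 with 1 array left out. Fewer arrays make overlap rarer for every probe set. The matching shares of all probe sets were not counted, so these counts are no result about the paralogs.

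Signs or sizes of the paralog differences were not stable. With 1 array left out, Klf6 ran from -0.11 to 0.60, Klf3 from -0.06 to 0.19, Klf5 from -0.91 to 0.63, Klf9 from -0.33 to 0.66, Klf11 from -0.05 to 0.51, Klf12 from -0.64 to 0.07 and Klf13 from -0.02 to 0.24; Klf4 ran from 0.22 to 0.91 and Klf16 from -0.67 to -0.10. Klf5 became 0.07 with array weights, and Klf13 -0.25 with the mean of its probe sets. That mean also moved the wild-type places: Klf6 to the top 19.8% of genes, Klf3 to 44.1%, Klf4 to 16.2%, Klf9 to 41.7%, Klf11 to 21.7%, Klf12 to 40.3%, Klf13 to 27.8% and Klf16 to 6.7%. Klf11 and Klf16 have 1 probe set each, so their own levels were unchanged and their places moved with the levels of other genes. The cause of the unstable signs was not tested.

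With 3 arrays per group the exact test cannot pass 0.05, and signals near the floor can understate differences. Without probe positions the remaining Klf7 signal does not measure remaining function.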
